A study of Mus musculus with 31 samples.

Results

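The cell division cycle genes described here are 41 of the 43629 genes in a table of RNA sequencing counts from the livers of 31 mouse pups. They were chosen by symbol, as genes of DNA replication, mitosis and their regulators, and each symbol matched 1 row of the table. All 41 passed the filter on low counts that left 17057 genes for testing. The pups were C57Bl/6J mice of postnatal day 14, treated every second day from postnatal day 2. Every pup, the controls included, lacked the type 1 and type 2 deiodinases (Dio1KO/Dio2KO), which remove iodine from thyroxine (T4) to give triiodothyronine (T3), the hormone with the higher affinity for the nuclear thyroid hormone receptors. Control pups were Dio1KO/Dio2KO/Pax8Het and received vehicle (n = 5). The other pups were Dio1KO/Dio2KO/Pax8KO, and so lacked a transcription factor that the thyroid needs to form. They received vehicle (n = 5, called vehicle here), T4 (n = 8), T3 (n = 6) or both hormones (n = 7, called T3+T4). There was no wild-type group, so control means a pup with a thyroid but without both deiodinases. The labels give each library its own animal number. Control animals were numbered 42, 47, 49, 50 and 59 and vehicle animals 2019, 37, 38, 55 and 67, and values per library follow those orders.

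As background, a cell that commits to divide activates E2F transcription factors, which switch on the genes for cyclin E, for the proteins that license replication origins and for nucleotide synthesis. Later in the cycle, B-MYB and FOXM1 on the MuvB complex switch on the genes for cyclin B, the mitotic kinases, the kinetochore and the spindle. In the mouse, hepatocytes still divide in the weeks after birth and blood-forming cells leave the liver in the same period, and thyroid hormone is a known stimulus of hepatocyte division in rodents.

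Promoter sequence is shown for the 5 members with a called change in level whose printed stretch, before the start and outside the gene's own exons, holds a word that E2F or the MuvB complex is known to bind. The RefSeq promoter table (GRCm38.p6) had an entry for 34 of the 41 genes, from 250 bases before to 50 bases after the annotated start. Both strands were searched for TTTGAA (a common form of the cell cycle homology region, which the MuvB complex binds), for the E2F words TTTCCCGC, TTTGGCGC, TTTCGCGC and TTTGCCGC, and for CCAAT (bound by NF-Y). The E2F words can overlap each other on opposite strands, as they do in Mcm5. TTTGAA was present in 18 of the 34 (52.9%), against 20.2% of the 27025 genes searched. An E2F word was present in 6 of the 34 (17.6%), against 2.6% of all genes searched, and CCAAT in 27 (79.4%), against 41.1%. Of the 6 genes with an E2F word, 5 (Cdc6, Mcm3, Mcm5, Mcm6 and Mcm7) were among the 8 licensing and fork genes with an entry, and the other was Cdk1. TTTGAA was in all 3 mitotic kinase and anaphase genes (Aurka, Plk1 and Cdc20), in 4 of 7 centromere and checkpoint genes, in 3 of 4 spindle genes and in 2 of 8 licensing and fork genes. A match is a description of letters and no evidence of binding. Below, up to 200 bases before the RefSeq start are given 5′ to 3′ on the gene's strand. E2F words and TTTGAA of either strand are in capitals (TTTGAA reads TTCAAA on the other strand). Bases in annotated exons of the same gene are left out. The Cdc6 stretch lies before a RefSeq start but inside the gene as annotated in GENCODE M21 (98907801 to 98923940).
Cdc6, chr11:98907982-98908150, + strand: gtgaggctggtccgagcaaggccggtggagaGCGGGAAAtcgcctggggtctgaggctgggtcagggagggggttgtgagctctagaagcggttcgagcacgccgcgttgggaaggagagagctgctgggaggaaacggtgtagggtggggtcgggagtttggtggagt
Mcm5, chr8:75109309-75109508, + strand: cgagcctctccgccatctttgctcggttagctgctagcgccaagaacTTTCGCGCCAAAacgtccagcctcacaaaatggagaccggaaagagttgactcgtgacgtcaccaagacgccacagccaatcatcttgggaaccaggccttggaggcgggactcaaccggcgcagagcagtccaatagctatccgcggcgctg
Cdk1, chr10:69352939-69353112, − strand: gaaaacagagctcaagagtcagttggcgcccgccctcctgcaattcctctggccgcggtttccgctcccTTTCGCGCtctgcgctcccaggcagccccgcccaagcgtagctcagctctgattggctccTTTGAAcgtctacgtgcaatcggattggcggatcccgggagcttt
Top2a, chr11:99024190-99024389, − strand: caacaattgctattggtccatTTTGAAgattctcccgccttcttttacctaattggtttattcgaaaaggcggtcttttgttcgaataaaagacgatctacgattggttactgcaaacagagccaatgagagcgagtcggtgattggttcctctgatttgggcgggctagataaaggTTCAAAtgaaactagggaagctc
Kif11, chr19:37376182-37376381, + strand: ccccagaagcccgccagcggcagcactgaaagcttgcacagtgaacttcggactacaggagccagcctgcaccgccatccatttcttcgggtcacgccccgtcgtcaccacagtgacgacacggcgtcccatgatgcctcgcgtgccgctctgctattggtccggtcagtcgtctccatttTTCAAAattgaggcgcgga
The Cdc6 and Mcm5 windows hold E2F words and no TTTGAA, the Top2a and Kif11 windows the reverse, and the Cdk1 window both. Of the other called genes, Ccna2 and Ccne2 had no promoter entry and were not searched. The rest had such words only outside the stretch that would be printed. TTTGAA began 13 bases after the start in Cdca8, 16 in Cenpa, 40 in Bub1b and 7 in Ttk, and at positions -240 and 10 in Cdc45. E2F words began at positions 19 and 38 in Mcm3 and at -165 and 16 in Mcm7.

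Library totals ran from 4383769 to 7158919 counts, from 4901954 to 5625282 in vehicle and from 5531724 to 7158919 after T3+T4. The lowest deposited count of any of the 41 genes in any library was 6. The targeted genes could not check the deletions, since counts cover the whole gene: Pax8 was at 28 counts or fewer and Dio2 at 47 or fewer in every library of every group. Dio1 counts differed between groups, from 776 to 1035 in control, 42 to 91 in vehicle, 82 to 369 after T4, 311 to 1260 after T3 and 690 to 1504 after T3+T4, so that every vehicle liver lay below every control, T3 and T3+T4 liver. A sex was given in the labels of 20 animals, and in 4 of them (vehicle 67, T4 54, T3 68 and T3+T4 79) Xist and 4 Y-linked genes went against it. By these genes, 4 of 5 control, 2 of 5 vehicle, 2 of 8 T4, 5 of 6 T3 and 2 of 7 T3+T4 animals were female. Pancreatic acinar or skeletal muscle genes averaged at least 5 CPM in 12 libraries (1 control, 2 vehicle, 3 T4, 2 T3 and 4 T3+T4). Levels are CPM, the share of a library's counts after TMM scaling. Tests are edgeR quasi-likelihood tests over all 17057 genes, and a gene is said to have risen, fallen or been called only where its Benjamini-Hochberg adjusted p was under 0.05.

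The summed level of the 41 genes was lower in vehicle than in control livers in every library. Control livers summed to 1428.3, 1655.9, 1910.9, 2119.7 and 1739.5 CPM, and vehicle livers to 861.9, 1244.1, 485.5, 1201.3 and 881.5 CPM. Mean sums were 1770.9 ± 261.2 CPM in control (SD, n = 5) and 934.9 ± 306.9 CPM in vehicle (n = 5). After T4 the sum ran from 697.3 to 1705.3 CPM with a median of 1154.2 (n = 8), after T3 from 295.3 to 1977.9 with a median of 1029.2 (n = 6), and after T3+T4 from 1092.5 to 2040 with a median of 1459.6 (n = 7). Each hormone group overlapped both control and vehicle. The means of the 5 groups fell in the order control, T3+T4, T4, T3, vehicle for 26 of the 41 genes. Control had the highest mean for 33 genes and T3+T4 for the other 8, while vehicle had the lowest for 36 and T3 for 5. In bulk liver, fewer dividing cells and less of each RNA per cell cannot be told apart.

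**Figure D1:**
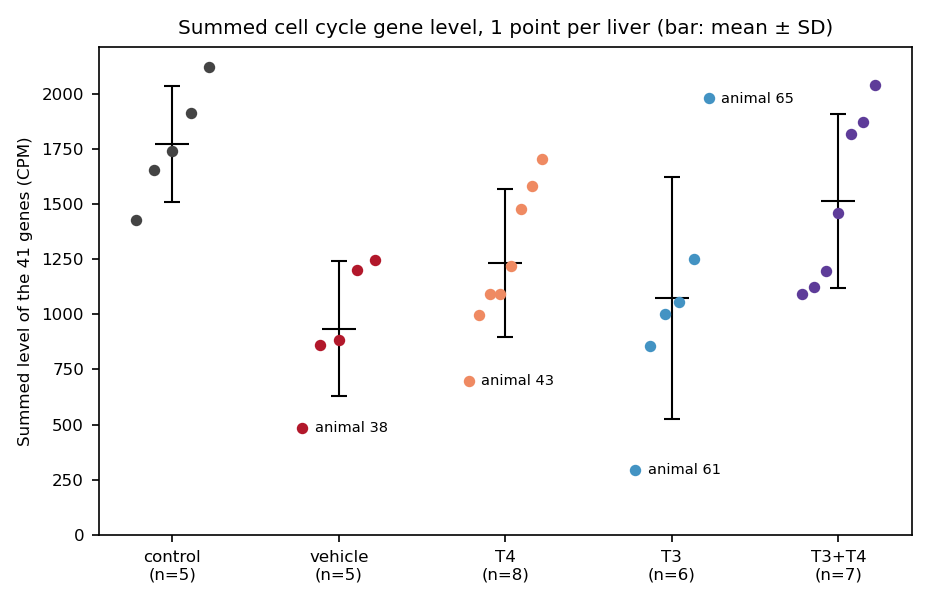
Summed level of the 41 cell cycle genes in CPM (vertical axis) in each liver by group (horizontal axis), with points for livers and bars for mean ± SD. All 5 control livers lie above all 5 vehicle livers, and T3 animals 61 and 65 span 295.3 to 1977.9 CPM.

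Many of the 41 genes varied together from animal to animal within a group, though replication and mitotic genes could part. T3 animal 61 had the lowest T3 value for 41 of 41 genes and the lowest value of all 31 livers for 34, while T3 animal 65 had the highest T3 value for 40. Vehicle animal 38 was lowest in its group for 35 genes, T4 animal 43 for 28 and control animal 42 for 27. Control animal 50 was highest in its group for 29. In T3 animal 68 the licensing, fork and nucleotide genes summed to 603 CPM, above the T3 median of 421.2. Its mitotic genes (chromosome structure, centromere, mitotic kinases and spindle) summed to 314.5 CPM, below the T3 median of 422. The median coefficient of variation of the 41 genes was 18.4% in control, 43.3% in vehicle, 35.1% after T4, 61.2% after T3 and 35% after T3+T4. Mcm7, a subunit of the replicative helicase, had the smallest coefficient in each Pax8KO group, between 11.2% and 27.4%, and Cenpa the smallest in control (8.99%). All genes of an animal come from 1 library and are not independent of each other.

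**Figure D2:**
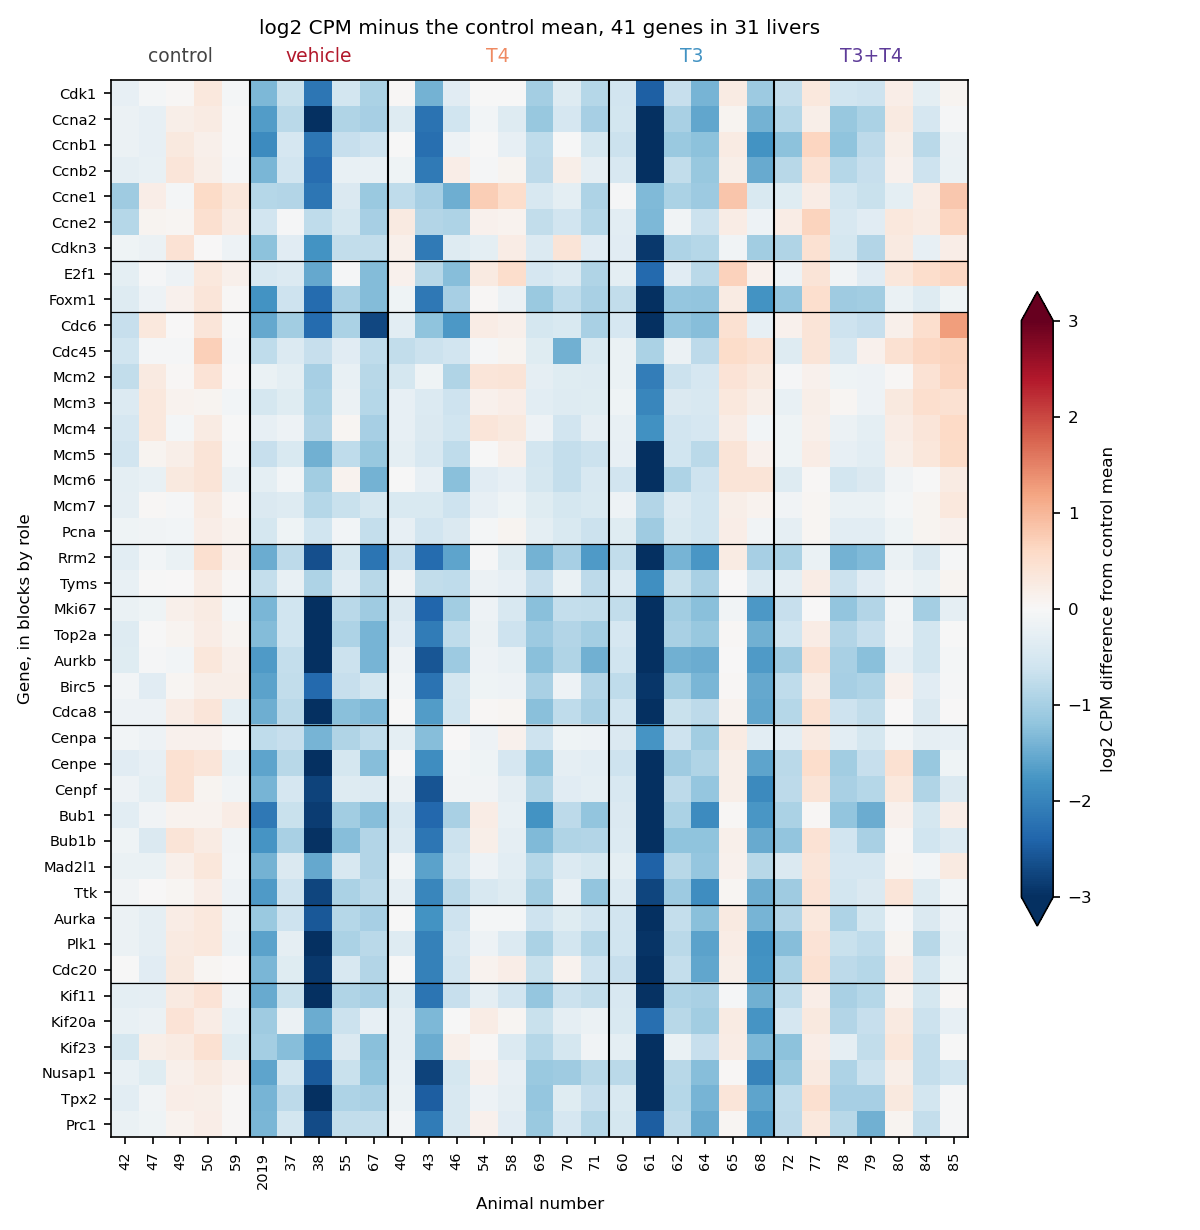
Log2 CPM of each of the 41 genes (rows, in blocks by role) in each of the 31 livers (columns, by group and animal number), minus the gene's mean log2 CPM in control. Colours end at 3 in either direction. The columns of vehicle 38, T4 43 and T3 61 are blue over most genes, and the rows of Mcm2 to Pcna are paler than those of the mitotic genes.

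Comparison of vehicle with control pups asked what loss of Pax8 does where no deiodinase 1 or 2 is present. Of the 41 genes, 10 fell and none rose, while 4.71% of all genes tested fell and 9.63% were called in either direction. The 10 were Cdk1, Ccna2, Cdc6, Mcm7, Top2a, Cdca8, Cenpa, Bub1b, Ttk and Kif11. All 41 fold changes were below 0, with a median log2 fold change of -1.05 against 0.011 over all genes tested. An unadjusted p under 0.05 was reached by 34 of the 41 and by 25.6% of all genes tested. The groups did not overlap for 27 of the 41, all lower in vehicle, against 4.92% of all genes. The count of 10 depended on single animals: it was 1 without vehicle 38, 2 without control 49 or control 50, 4 without vehicle 2019 or vehicle 67 and 6 without control 47 or control 59, with medians between -1.15 and -0.85. It was higher in other fits, at 12 without vehicle 37, 21 with DESeq2 and 26 with the compared groups only. Without the 4 animals whose labelled sex differed it was 4 (median -1.12), and without the libraries with raised acinar or muscle genes 0 (median -1.12, 25 genes with an unadjusted p under 0.05). Of 22 alternatives, Mcm7 was called under 20, Cenpa under 19, Cdca8 under 17, Bub1b under 15, Cdc6 under 14, Kif11 under 13, Ccna2 under 11, Top2a under 10, Ttk under 9 and Cdk1 under 8.

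By role, the median log2 fold change of vehicle against control was -1.03 for the 7 cyclins and CDK1 partners, -0.56 for the 9 licensing and fork genes, -1.27 for the 5 genes of chromosome structure and the passenger complex, -1.19 for the 7 centromere and checkpoint genes, -1.10 for the 3 mitotic kinase and anaphase genes and -1.16 for the 6 spindle genes. The ratio of the summed level of the 4 mitotic roles (the last 4 named) to that of the licensing, fork and nucleotide genes ran from 1.27 to 1.64 in control and from 0.482 to 1.57 in vehicle. It was 0.508 to 1.72 after T4, 0.522 to 1.27 after T3 and 0.85 to 1.64 after T3+T4. The groups overlapped in this ratio, and no test of a difference between roles was made.

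Comparison of T3+T4 with vehicle asked what both hormones do in pups without Pax8. Of the 41 genes, 8 rose and none fell, while 7.33% of all genes tested rose and 15.8% were called in either direction. The 8 were Ccne2, Cdc6, Cdc45, Mcm3, Mcm5, Mcm7, Cdca8 and Cenpa, of which 5 are licensing and fork genes. By role, the median log2 fold change was 0.63 for the 9 licensing and fork genes, 0.77 for the cyclins, 0.89 for the transcription factors, 0.58 for the nucleotide genes, 0.89 for chromosome structure, 0.98 for the centromere and checkpoint, 0.74 for the mitotic kinases and 0.79 for the spindle, so that the role with the most calls did not have the highest median. All 41 fold changes were above 0, with a median log2 fold change of 0.77 against -0.003 over all genes, and 26 had an unadjusted p under 0.05, as had 30.1% of all genes. The groups did not overlap for 5 genes, all higher after T3+T4 (Cdc6, Mcm2, Mcm5, Mcm7 and Cenpa), against 3.54% of all genes. Here too single animals moved the count: it was 2 without vehicle 38 or vehicle 67, 3 without T3+T4 85, and 4 without vehicle 2019 or T3+T4 77, 80 or 84, but 13 with the compared groups only and 20 with DESeq2. It was 2 without the 4 animals whose labelled sex differed, 3 with library total as a covariate, and 0 without the libraries with raised acinar or muscle genes (median 0.90). Cdc6 and Mcm7 were called under 22 of 24 alternatives, all but that one and the fit of animals 54 to 85. Mcm5 was called under 16, Mcm3 and Cenpa under 15, Cdc45 and Cdca8 under 13 and Ccne2 under 11. This comparison and that of vehicle with control share the 5 vehicle livers, so that a low vehicle library moves both.

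**Figure D3:**
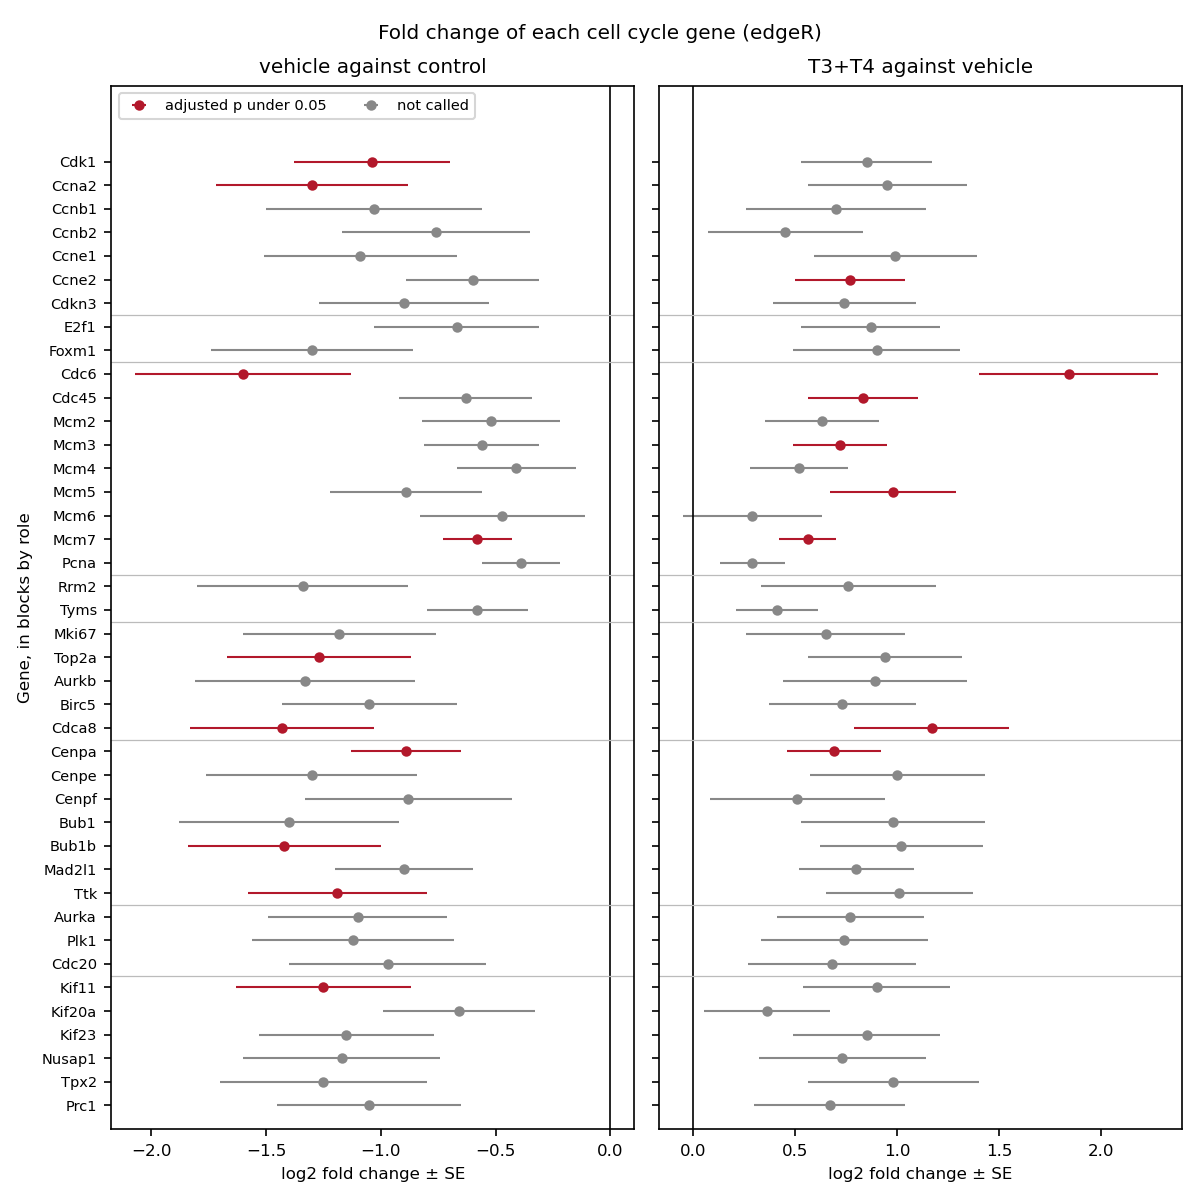
Log2 fold change ± SE (horizontal axes) of each of the 41 genes (vertical axis, in blocks by role) for vehicle against control and for T3+T4 against vehicle, with called genes in red. The points of the left panel all lie below 0, with 10 called, and those of the right panel all lie above 0, with 8 called, 5 of them among Cdc6 to Pcna.

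Neither hormone alone gave a called change in any of the 41 genes. With T4 against vehicle the edgeR count was 0, where 0.41% of all genes were called. All 41 fold changes were at or above 0 (median log2 fold change 0.50, range 0.00 to 1.07), and 4 (Cdc6, Cdca8, Cenpa and Kif23) had an unadjusted p under 0.05, as had 12.7% of all genes. With T3 against vehicle the count was again 0, where 6.77% of all genes were called. The median was 0.26, 37 genes were above 0, and 1 (Mcm7) had an unadjusted p under 0.05, as had 21.9% of all genes. Without T3 animal 61 the median was 0.43 and Mcm7 was called, and without T3 animal 65 the median was -0.07. DESeq2 also called 0 of the 41 in either comparison. Other tissue differed as well: 1 of 6 acinar genes fell after T4, and 5 of 6 acinar genes fell and 5 of 5 muscle genes rose after T3. These genes were high in some libraries of a group and not in others. Acinar genes summed to 209.7 CPM in vehicle 37 and 1.66 CPM in vehicle 67, and muscle genes to 367 CPM in T3 64 and 5.51 CPM in T3 68. The part of acinar and muscle genes in the values of the 41 was not tested. A missed threshold at the spread of the 41 genes does not show that their levels were alike.

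Set directly against each other, T4 and T3 gave no called member (0.551% of all genes), none with an unadjusted p under 0.05 (14.2% of all genes), and a median log2 difference of 0.26 for T4 against T3. T3+T4 was higher than T4 for Mcm7 alone of the 41 (log2 difference 0.39 ± 0.12, adjusted p = 0.0355), where 8.61% of all genes were called and 4.06% were higher. An unadjusted p under 0.05 was reached by 5 members and 22.5% of all genes. The Mcm7 call held under 15 of 27 alternatives and was lost without T4 43, 46, 69, 70 or 71 or T3+T4 72, 77, 84 or 85. Against T3, T3+T4 gave 0 called members (0.0117% of all genes), 9 with an unadjusted p under 0.05 (12.7% of all genes), and a median of 0.55. The interaction of T3 and T4 called 0 members (0.135% of all genes), none at an unadjusted p under 0.05 (10.4% of all genes), and DESeq2 called 0 in these last 2 comparisons and in T4 against T3.

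Against control, no member was called in any hormone group, by edgeR or by DESeq2. After T4 the 41 fold changes were all below 0 (median -0.47, 8 with an unadjusted p under 0.05, as had 19.8% of all genes), where 3.54% of all genes were called. After T3 they were all below 0 as well, with a median of -0.83 and 28 with an unadjusted p under 0.05 (17.4% of all genes), where 0.211% of all genes were called. After T3+T4 the median was -0.29, 33 genes were below 0 and none had an unadjusted p under 0.05. No gene of the 17057 was called there (0%), and 7.19% had an unadjusted p under 0.05. These 3 comparisons share the 5 control livers.

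Among the cyclins, Cdk1, the kinase that drives entry into mitosis, fell in vehicle livers. Control livers held Cdk1 at 31.4, 35.9, 38.3, 46.2 and 35.6 CPM and vehicle livers at 14.7, 23.3, 8.28, 25.5 and 19.3 CPM, with no overlap. Its log2 fold change was -1.04 ± 0.34 (adjusted p = 0.0498), a 2.05-fold difference at the edge of the threshold. After T4, Cdk1 ran from 13.9 to 37.9 CPM (median 28.9), after T3 from 6.85 to 44.3 (median 20.3) and after T3+T4 from 22.8 to 46 (median 30.1), each overlapping both other groups. Ccna2, cyclin A2 of S and G2 phase, fell by 1.30 ± 0.42 on the log2 scale (adjusted p = 0.0450).

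Ccnb1, cyclin B1 and the mitotic partner of CDK1, was at 20.2, 19.1, 27.6, 25.1 and 22.3 CPM in control and at 6.11, 15.9, 5.05, 14 and 14.7 CPM in vehicle livers. These did not overlap, and the gene was still not called (log2 fold change -1.03 ± 0.47, adjusted p = 0.163). After T3 it ran from 1 CPM in animal 61 to 26.8 CPM (median 10.1), the largest ratio of highest to lowest among the 41 genes in T3 livers. Ccne2, cyclin E2 of the G1 to S transition, was called for the hormones instead. Control livers held Ccne2 at 16.9, 32.3, 32.2, 43 and 36.4 CPM and vehicle livers at 20.8, 30.1, 18.2, 21.2 and 15.5 CPM, which overlapped. T3+T4 livers ran from 21.9 to 49.2 CPM (median 36.2), and the gene rose against vehicle (log2 fold change 0.77 ± 0.27, adjusted p = 0.0469). The exons of Ccne2 share 609 bases with Ints8 on the opposite strand and those of Ccna2 share 510 with Exosc9. Ccnb2 (a second B cyclin), Ccne1 (cyclin E1) and Cdkn3 (a phosphatase of cyclin-dependent kinases) were called in neither of these comparisons, with log2 fold changes of -0.76, -1.09 and -0.90 in vehicle and 0.45, 0.99 and 0.74 after T3+T4.

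Neither transcription factor of the list was called. E2f1, an activator of S-phase genes, was at 21.8, 26.1, 24.1, 33.5 and 29.9 CPM in control livers and at 19.1, 20.1, 9.29, 26.1 and 10.9 CPM in vehicle livers. After T3+T4 it ran from 21.3 to 41.5 CPM (median 33.9), so that the median lay above the highest control liver. Its log2 fold changes were -0.67 ± 0.36 in vehicle and 0.87 ± 0.34 after T3+T4 (adjusted p = 0.255 and 0.0775). Foxm1, an activator of mitotic genes, was at 28.1, 33, 40.5, 47.5 and 37.9 CPM in control and at 10.7, 23.9, 7.47, 18.7 and 14.9 CPM in vehicle livers, with no overlap. It missed the threshold at a log2 fold change of -1.30 ± 0.44 (adjusted p = 0.0573). After T3+T4, Foxm1 was at 16.4 to 52.6 CPM with a median of 28.3, below 4 of the 5 control livers.

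Cdc6, which loads the MCM helicase onto replication origins, had the largest fold change of the 41 in both comparisons. Control livers held Cdc6 at 6.79, 13.7, 11.1, 14.2 and 10.9 CPM and vehicle livers at 3.82, 5.29, 2.22, 5.73 and 1.66 CPM. After T4 it ran from 3.34 to 12.8 CPM (median 7.81), after T3 from 1 to 15 (median 6.3) and after T3+T4 from 6.76 to 26.1 (median 12.2). Vehicle livers lay below every control and every T3+T4 liver. Cdc6 was 3.02-fold lower in vehicle than in control (log2 fold change -1.60 ± 0.47, adjusted p = 0.0293) and 3.58-fold higher after T3+T4 than in vehicle (1.84 ± 0.44, adjusted p = 0.00499). With T4 alone the log2 fold change was 1.07 ± 0.44 (adjusted p = 0.288) and with T3 alone 0.92 ± 0.46 (adjusted p = 0.235). The T3+T4 change kept its direction in all 24 alternatives.

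The 6 MCM subunits form the helicase that unwinds replicating DNA, and their log2 fold changes were smaller in size than those of Cdc6. Control livers held Mcm7 at 50.6, 62.8, 59.6, 73.2 and 62.5 CPM and vehicle livers at 45.2, 46.7, 34.1, 38.6 and 42.2 CPM. T3+T4 livers ran from 53.4 to 75.9 CPM (median 58.6), T4 livers from 39.7 to 55.9 (median 44.9) and T3 livers from 33.1 to 69.1 (median 50.7). Vehicle livers again lay below all control and all T3+T4 livers, here with little spread. The log2 fold changes were -0.58 ± 0.15 in vehicle (adjusted p = 0.0122) and 0.56 ± 0.14 after T3+T4 (adjusted p = 0.00556). The exons of Mcm7 hold 2 microRNAs (Mir25 and Mir93) and share 321 bases with Ap4m1 and 64 with Cops6 on the opposite strand.

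Mcm5 was at 41.7, 66.2, 70.5, 81.9 and 59.5 CPM in control livers and at 38.6, 45.2, 23, 36.9 and 28.2 CPM in vehicle livers, which overlapped through control 42 and vehicle 37. T3+T4 livers ran from 50.4 to 93.1 CPM (median 70.1), all above the vehicle livers. Mcm5 rose after T3+T4 (log2 fold change 0.98 ± 0.31, adjusted p = 0.0308) and was not called in vehicle (-0.89 ± 0.33, adjusted p = 0.0849). Mcm3 likewise rose after T3+T4 (0.72 ± 0.23, adjusted p = 0.0309), from 39.9, 44.9, 29.9, 51.1 and 31.9 CPM in vehicle to between 49.2 and 81.1 CPM (median 65.2). In control, Mcm3 was at 43.5, 71.8, 61.4, 60.4 and 54.3 CPM. T3+T4 livers overlapped vehicle livers for Mcm3 through vehicle 55. Cdc45, which binds the MCM ring to complete the active helicase, rose by 0.83 ± 0.27 (adjusted p = 0.0332), at a low level (5.01 ± 0.733 CPM in vehicle, n = 5, and 8.93 ± 2.59 CPM after T3+T4, n = 7).

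Mcm2 was at 29.7, 59.7, 50.4, 65.7 and 49.9 CPM in control and at 43.1, 40.5, 24.6, 42.4 and 27.8 CPM in vehicle livers. After T3+T4 it ran from 44.6 to 77.3 CPM (median 50.2), above every vehicle liver, yet was not called (log2 fold change 0.63 ± 0.28, adjusted p = 0.126). Pcna, the clamp that holds DNA polymerase on its template, had the smallest log2 fold change in vehicle: 68.4, 70.1, 70.9, 85.6 and 80.6 CPM in control against 51.5, 68.8, 49.5, 70.9 and 45.3 CPM. That difference was -0.39 ± 0.17 on the log2 scale and was not called (adjusted p = 0.137). Mcm4 and Mcm6 were not called either, at -0.41 and -0.47 in vehicle and 0.52 and 0.29 after T3+T4. Pcna has 2 pseudogenes in the deposited table (Pcna-ps1 and Pcna-ps2) that could take part of its reads. Per kilobase of annotated exon, Pcna had the highest level of the 41 genes in control livers at 31.3 CPM, followed by Rrm2 at 27.4 and Mki67 at 23.3, while Kif23 had the lowest at 1.62 and Cdc6 the next at 2.17.

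Rrm2, the subunit of ribonucleotide reductase whose level follows S phase, was at 60, 70.2, 64.8, 103.4 and 81.2 CPM in control livers. Vehicle livers held it at 26.5, 43, 11.9, 52 and 16.2 CPM, with no overlap and a more than 4-fold spread among themselves. It was 2.54-fold lower but not called (log2 fold change -1.34 ± 0.46, adjusted p = 0.0586). After T3+T4 it ran from 27.8 to 72.8 CPM (median 55), which overlapped both control and vehicle livers. Tyms, thymidylate synthase, had log2 fold changes of -0.58 in vehicle and 0.41 after T3+T4, neither called.

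**Figure D4:**
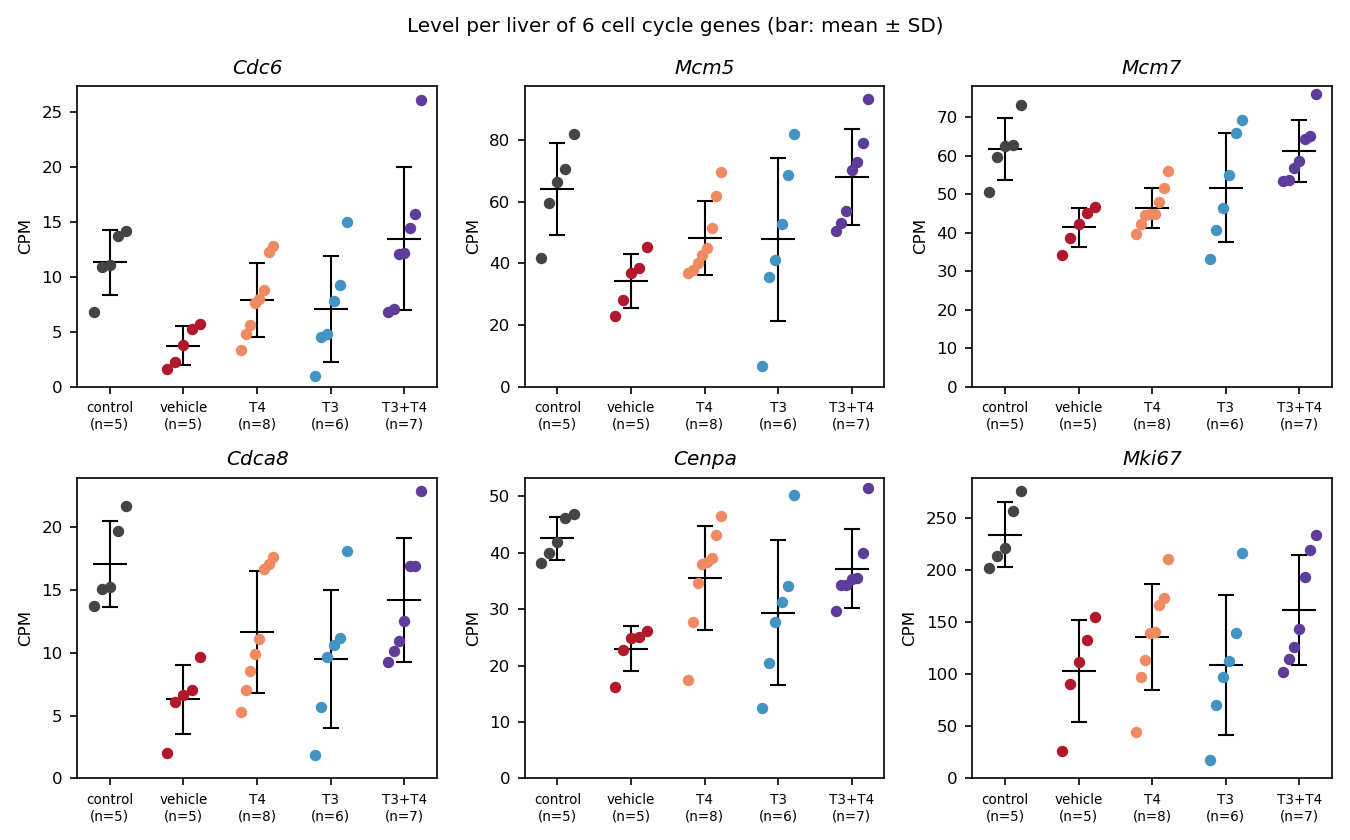
CPM (vertical axes) of 6 cell cycle genes in each liver by group (horizontal axes), with points for livers and bars for mean ± SD. For Cdc6, Mcm7 and Cenpa every vehicle liver lies below every control and every T3+T4 liver, for Mcm5 and Cdca8 1 of these separations fails, and for Mki67 T3+T4 livers overlap vehicle livers.

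Mki67, the coat protein of mitotic chromosomes whose antigen is the usual marker of dividing cells, had the highest CPM of the 41. Control livers held Mki67 at 202, 213.9, 256.9, 276 and 221.6 CPM and vehicle livers at 90.3, 154.5, 25.9, 132.6 and 111.9 CPM. After T4 it ran from 44.4 to 210.2 CPM (median 140.4), after T3 from 17.9 to 216.7 (median 104.7) and after T3+T4 from 101.9 to 233.3 (median 143.5). Vehicle lay below control throughout, and each hormone group overlapped vehicle. The log2 fold change was -1.18 ± 0.42 in vehicle (adjusted p = 0.0718) and 0.65 ± 0.39 after T3+T4 (adjusted p = 0.274), so neither was called. Top2a, the topoisomerase that untangles sister chromatids, was at 77.3, 100.9, 107.8, 119.6 and 108.4 CPM in control and fell to 41.4, 67.3, 11.1, 53.5 and 39 CPM in vehicle (log2 fold change -1.27 ± 0.40, adjusted p = 0.0434). After T3+T4, Top2a was at 55.4 to 118 CPM with a median of 69.8, which overlapped vehicle.

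The chromosomal passenger complex corrects wrong attachments of chromosomes to the spindle, and 3 of its subunits were among the 41. Cdca8, its borealin subunit, was at 15.2, 15.1, 19.7, 21.7 and 13.7 CPM in control and at 6.11, 9.67, 2.02, 7 and 6.63 CPM in vehicle livers. After T3+T4 it ran from 9.26 to 22.9 CPM (median 12.5), overlapping only vehicle 37. Cdca8 fell in vehicle (log2 fold change -1.43 ± 0.40, adjusted p = 0.0221) and rose after T3+T4 (1.17 ± 0.38, adjusted p = 0.0336). Its exons share 232 bases with 9930104L06Rik on the opposite strand. Aurkb, the kinase of the complex, and Birc5, survivin, had log2 fold changes of -1.33 and -1.05 in vehicle and 0.89 and 0.73 after T3+T4, with no call.

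At the centromere, Cenpa, the histone H3 variant that marks where kinetochores form, was the member with the most even levels in control. Control livers held Cenpa at 40, 38.1, 46.2, 46.8 and 41.9 CPM and vehicle livers at 25, 26.1, 16.2, 22.7 and 24.9 CPM. After T4 it ran from 17.4 to 46.6 CPM (median 38.2), after T3 from 12.5 to 50.3 (median 29.5) and after T3+T4 from 29.6 to 51.4 (median 35.3). Vehicle lay below all control and all T3+T4 livers, and T4 and T3 livers overlapped it. Cenpa fell in vehicle (log2 fold change -0.89 ± 0.24, adjusted p = 0.0194) and rose after T3+T4 (0.69 ± 0.23, adjusted p = 0.0362). The spindle checkpoint kinases Bub1b and Ttk fell in vehicle by 1.42 ± 0.42 and 1.19 ± 0.39 on the log2 scale (adjusted p = 0.0323 and 0.0478). Their log2 fold changes after T3+T4 were 1.02 and 1.01, with no call. Bub1, Mad2l1, Cenpe and Cenpf, the other checkpoint and kinetochore genes, were at -1.40, -0.90, -1.30 and -0.88 in vehicle and at 0.98, 0.80, 1.00 and 0.51 after T3+T4, none called.

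Of the mitotic kinases, Plk1, which acts from mitotic entry to cytokinesis, was at 16.1, 15.1, 21.7, 22.5 and 16.4 CPM in control and at 5.92, 15, 1.41, 9.34 and 10.3 CPM in vehicle livers. The highest vehicle liver lay just under the lowest control liver. Its log2 fold change was -1.12 ± 0.44 in vehicle (adjusted p = 0.0995) and 0.74 ± 0.41 after T3+T4 (adjusted p = 0.227). Aurka, a spindle pole kinase, and Cdc20, the activator of the anaphase-promoting complex, were at -1.10 and -0.97 in vehicle without a call.

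Of the 6 spindle and cytokinesis genes, Kif11, the motor that pushes spindle poles apart, fell in vehicle (log2 fold change -1.25 ± 0.38, adjusted p = 0.0364). Tpx2, Nusap1, Prc1 and Kif23, which build or bundle spindle microtubules, lay between -1.25 and -1.05 without a call, and Kif20a, a motor of cytokinesis, was at -0.66. After T3+T4 the 6 lay between 0.36 and 0.98, and none was called. Kif20a shares 1271 exonic bases with Cdc23, Prc1 911 with Rccd1 and Nusap1 172 with Oip5, each on the opposite strand, and the use of strand in the counting is not given in the sources used here.

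Other genes of the cell cycle, from lists of genes outside the 41, were described by their counts and medians. They share the libraries of the 41. Of all genes tested, 9.63% were called in vehicle against control and 15.8% in T3+T4 against vehicle. Of 51 other mitosis genes tested, 12 fell and none rose in vehicle against control, with a median log2 fold change of -1.08. Of 34 other replication genes, 9 fell and none rose (median -0.65), and of 15 other E2F, DP and MuvB factors 4 fell (median -0.29). The 13 G1 cyclins, kinases and pocket proteins gave 1 rise and 2 falls with a median of -0.11. The 5 CDK inhibitors tested gave 1 fall and a median of 0.03. After T3+T4 against vehicle, 5 of the 51 mitosis genes, 12 of the 34 replication genes and 4 of the 15 E2F, DP and MuvB factors rose and none fell, with medians of 0.83, 0.55 and 0.29. The G1 list then gave 2 rises and 1 fall and the CDK inhibitors 1 of each.

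Within those lists, E2f8, an atypical E2F that represses E2F targets, had the largest called change, from 40.3 CPM in control to 9.15 CPM in vehicle (means, log2 fold change -2.13 ± 0.39, adjusted p = 0.000842). It rose after T3+T4 (2.00 ± 0.37, adjusted p = 0.000531) and after T3 alone (1.33 ± 0.38, adjusted p = 0.031). Cenpm, a subunit of the inner kinetochore, fell by 1.78 ± 0.34 on the log2 scale in vehicle and rose by 1.69 ± 0.32 after T3+T4 (adjusted p = 0.00116 and 0.000704). It rose after T3 alone as well (1.09 ± 0.33, adjusted p = 0.043). Cdkn2c, the inhibitor p18 of CDK4 and CDK6, fell in vehicle and rose after T3+T4, with log2 fold changes of -1.51 ± 0.29 and 1.24 ± 0.28 (adjusted p = 0.00146 and 0.00291). Cdkn1c, the inhibitor p57, fell after T3+T4 (-0.71 ± 0.21, adjusted p = 0.0225).

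The D cyclins, which start G1, went in different directions. Ccnd1 fell in vehicle (-0.70 ± 0.21, adjusted p = 0.0308) and rose after T3+T4 (0.70 ± 0.19, adjusted p = 0.0138), with means of 167.4 CPM in control, 102.9 in vehicle and 167.3 after T3+T4. Ccnd3 rose in vehicle (0.33 ± 0.09, adjusted p = 0.0172) and fell after T3+T4 (-0.44 ± 0.08, adjusted p = 0.000463). T4 alone gave 2 called genes in these lists, both in the E2F, DP and MuvB list: E2f4, an E2F of resting cells, rose (0.33 ± 0.08, adjusted p = 0.0455) and Tfdp2, a dimer partner of E2Fs, fell (-0.52 ± 0.11, adjusted p = 0.0344). T3 alone called E2f8, E2f4 and Tfdp1 in that list and Cenpm among the mitosis genes, all higher, and Cdk6 in the G1 list, lower. Of all genes tested, 0.41% were called after T4 and 6.77% after T3.

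**Figure D5:**
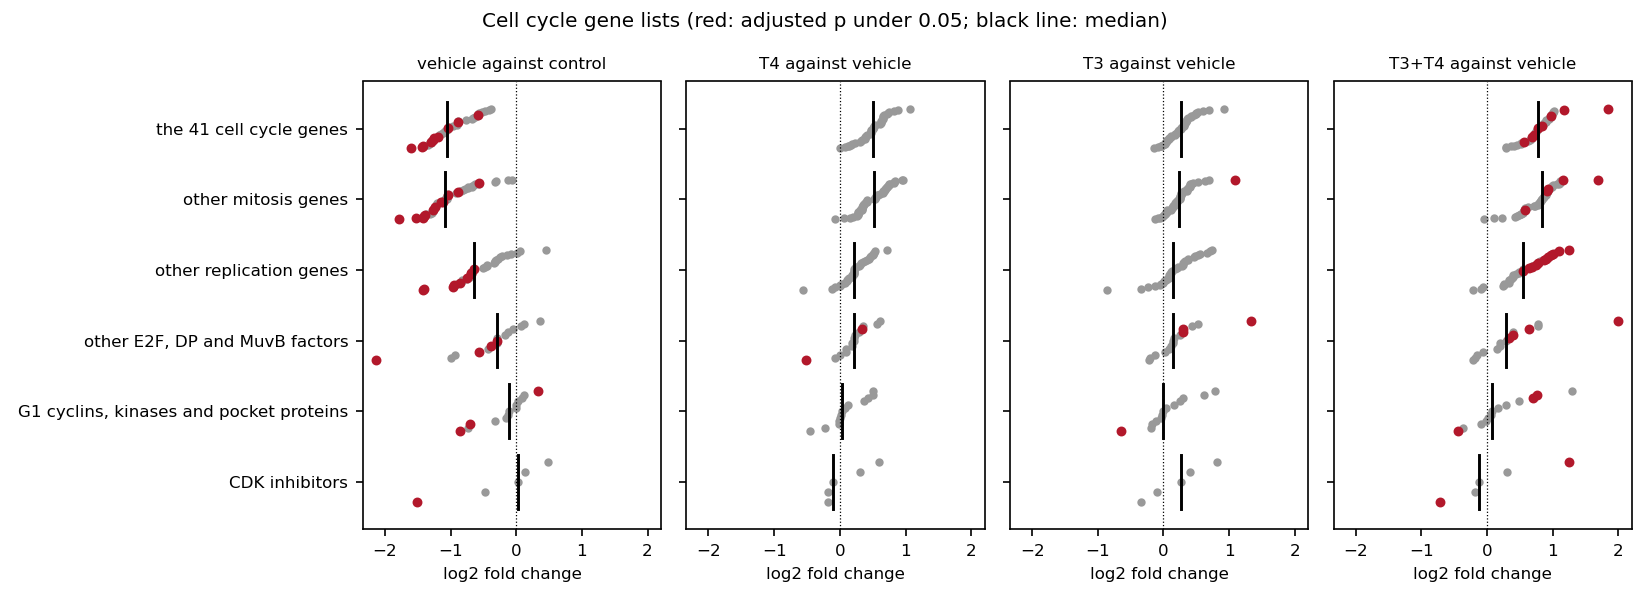
Log2 fold change (horizontal axes) of every tested gene of the 41 and of 5 other cell cycle lists (vertical axis) in 4 comparisons, with called genes in red and the list median as a black line. In vehicle against control the medians run from -1.08 for other mitosis genes to 0.03 for CDK inhibitors, and after T3+T4 against vehicle from -0.13 for CDK inhibitors to 0.83 for other mitosis genes.

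Markers of other cells were measured beside these results. Of all genes tested, 9.63% were called in vehicle against control, and the counts below are to be read beside that share. In vehicle against control none of 13 erythroid genes was called, and their summed level ran from 836.2 to 1055.9 CPM in control and from 896 to 1138.5 CPM in vehicle, which overlapped. Of 9 tested B cell and precursor genes 4 fell, among them Igll1 (2.92 CPM in control and 0.232 in vehicle, adjusted p = 0.00407), Vpreb3 and Vpreb1. Igll1 in vehicle was near the lowest deposited value of 1 count, since Tnnc2 and Pnlip averaged 0.194 CPM there, so the size of its change is uncertain. The B cell and precursor genes summed to 31.3 to 127.6 CPM in control and 35.7 to 66.6 CPM in vehicle, which overlapped. Of 8 stellate cell genes 2 fell (Col3a1 and Lrat), and their sum, 1299.8 to 1437 CPM in control and 933.1 to 1241.4 CPM in vehicle, did not overlap. Single genes were also called among hepatocyte (Glul lower), Kupffer cell (Clec4f lower), neutrophil (Csf3r higher) and endothelial markers (Kdr higher), out of 8, 9, 10 and 8 tested. None was called of 6 megakaryocyte, 7 T and NK cell, 6 cholangiocyte, 6 acinar and 5 muscle genes.

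In T3+T4 against vehicle, where 15.8% of all genes tested were called, none of the 13 erythroid genes was called (726.8 to 1005.1 CPM). Of 9 B cell genes 1 rose, Igll1 at 1.27 CPM (adjusted p = 0.0442), from a vehicle level near the lowest deposited value. Of the 8 stellate genes 1 fell, Dcn, and the sum was 973.9 to 1319.2 CPM, which overlapped vehicle. Single genes were called among neutrophil (Csf3r lower, -0.73, adjusted p = 0.0325), T and NK cell (Gzma higher, 1.11, adjusted p = 0.0149), Kupffer cell (Timd4 higher, 0.50, adjusted p = 0.0373) and endothelial markers (Kdr lower, -0.27, adjusted p = 0.0207). All 10 neutrophil genes were above 0 in vehicle against control (median log2 fold change 0.84) and 9 of 10 below 0 after T3+T4 (median -0.58). Their summed level was 52.3 to 155.7 CPM in control, 102.1 to 343 in vehicle and 77.4 to 233.5 after T3+T4, which overlapped. Of 8 hepatocyte genes 5 were called after T3+T4, but 5 of the 8 (Alb, Apoa1, Ttr, Serpina1a and Cyp2e1) averaged over 1 count per exonic base, and whether counting was near a ceiling there was not tested, so no direction is read from them. Acinar genes summed to at most 209.7 CPM in vehicle and 196.5 CPM after T3+T4, and muscle genes to at most 367 CPM after T3 and 222 CPM after T4. The part of these cells in the changes of the 41 genes was not tested beyond the fits without the raised acinar and muscle libraries given above.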

How the data were processed

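Gene counts were used as the authors deposited them: whole numbers, with totals that differ between libraries. No value is below 1 and 50.1% equal 1, as if 1 had been added to each. The submitters' processing notes list bcl2fastq, Trimmomatic, BWA 0.7.10, DESeq and a human build (GRCh38), while the column names state mm10. The counting tool and its use of strand are not given in the sources used here. Per the labels' protocols, 1 ug of TRIzol RNA entered a stranded mRNA kit.

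Counts were scaled by TMM, filtered with filterByExpr and compared by the quasi-likelihood test of edgeR 4.0.16 in R 4.3.3. The fit took all 31 libraries, each group having its own mean, and gave 11 comparisons adjusted over 17057 genes. The script was tested on simulated data. CPM were computed from the counts, and positions and exonic lengths are from GENCODE M21 (97.3% of gene IDs matched). Groups followed the labels. Library totals of 4383769 to 7158919 counts and the spread between animals both limit the precision. The members and lists were chosen with earlier results of these data known. Of the 41 genes, 17 are given by library: 13 listed by name and up to 4 called genes with the smallest adjusted p per comparison. From each other list, up to 3 called genes with the smallest adjusted p were named. Marker sums leave out 5 hepatocyte genes with over 1 count per exonic base. Alternatives were median-of-ratios factors, library total alone, no filter, a mean of at least 5 CPM, the added 1 subtracted, library total as a covariate, compared groups only, DESeq2 1.42.0, animals 54 to 85, dropping the 12 libraries in which acinar or muscle genes were raised, and leaving out each library. Sex as a covariate, and a fit without the 4 animals whose sex label was contradicted, were added after seeing the data.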

Additional observations from a re-analysis of the deposited data

Results flagged for a closer look

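In 6 of 90 sets of log2 CPM values (each of 17 genes and the summed level of the 41, in each of 5 groups) 1 liver lay further from the others than Dixon's 95% critical value allows, and chance flags about 1 in 20. The rule was applied on the log2 scale only, which widens gaps between low values, while the levels below are given in CPM. All 6 were the lowest of their group and came from 3 animals. T4 animal 43 stood apart for Top2a at 23.8 CPM (the next was 48), for Ccnb1 at 4.76 CPM (next 13.4) and for Plk1 at 4.41 CPM (next 9.34). T3 animal 61 stood apart for Mcm5 at 6.85 CPM (next 35.5) and for Mcm3 at 14.9 CPM (next 41.3). Vehicle animal 38 stood apart for Cenpa at 16.2 CPM (next 22.7).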

How the results depend on the processing

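No paired analysis was possible because the animal numbers are shared by no groups. All 6 T3 and all 7 T3+T4 animals were numbered 54 to 85, as were 5 of 8 T4, 2 of 5 vehicle and 1 of 5 control. Animal number and treatment thus partly go together and cannot be fully told apart. For vehicle against control (10 members called) the count was 4 with no filter on low counts, 0 with animals 54 to 85 only (1 control and 2 vehicle), 0 without raised acinar or muscle libraries, 4 without the animals whose labelled sex differed, 26 with the compared groups only and 21 with DESeq2, and 1 to 12 with a library left out. For T3+T4 against vehicle (8) it was 3 with library total as a covariate, 0 with animals 54 to 85 only, 0 without raised acinar or muscle libraries, 2 without the animals whose labelled sex differed, 13 with the compared groups only and 20 with DESeq2, and 2 to 10 with a library left out. For T3+T4 against T4 (1) it was 2 with a mean of at least 5 CPM and without the animals whose labelled sex differed, 0 with the covariate, with animals 54 to 85 only and without raised acinar or muscle libraries, 3 with DESeq2, and 0 to 2 with a library left out. T4 against control gave 1 with the compared groups only, and T3 against vehicle 0 to 1 with a library left out. The other 6 comparisons gave 0 under every alternative and with each library left out. With sex as a covariate, the 10 genes called in vehicle against control all stayed called. Of the 8 called in T3+T4 against vehicle, only Ccne2 was lost in that fit. No called gene changed sign under any alternative. Of 439 values of single called genes under the alternatives, 278 stayed past the threshold and 161 did not. Fits with fewer libraries have fewer degrees of freedom, and the cause of the changed counts was not tested.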
